A study of Coprinopsis cinerea with 29 samples.

Results

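The passage from young lamellae to the mature cap with its lamellae was examined in Coprinopsis cinerea, the ink cap mushroom used as a model of fruiting. It rests on 6 of the 29 libraries of polyadenylated RNA in the series, chosen by their titles: 3 of lamellae dissected from young fruiting bodies (YFB_L) and 3 of cap with lamellae in 1 sample from fruiting bodies (FB_CL), called mature here. Every group was strain #326 (A43mut B43mut pab 1-1), a homokaryon whose mating type mutations let it fruit without a mate. Colonies grew for 5 days in darkness at 37 °C and fruited at 25 °C, with light and dark periods of 12 h each. The series calls the replicates biological, but the labels do not say which fruiting bodies or cultures they came from, so each p-value rests on the spread among libraries that may share a source. The other groups used here are young cap (YFB_C), young stipe (YFB_S), mature stipe (FB_S), vegetative mycelium (VM), secondary hyphal knots (H) and primordia of 2 stages (P1, P2). The 6 libraries held from 14445914 to 32199674 counted reads, and YFB_L replicate 1 was the deepest.

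Lamellae, or gills, hang under the cap and carry the hymenium, the layer whose basidia undergo meiosis and bear the spores. In ink caps the tissue of the mature cap digests itself as spores are shed. The 2 groups differ in dissection as well as in stage, since the mature samples hold cap tissue next to lamellae in a proportion the labels do not give. A lower level of a lamella transcript in the mature samples can therefore lie in fewer lamella cells, in less RNA per cell or in dilution by cap tissue, and these cannot be told apart in bulk RNA.

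The deposited files number the gene models without naming them, and 0 of the 14242 identifiers matched a reference table of 13657 genes from another strain. Gene models are given by number, without a statement of what they encode, and the tissue labels could not be set against marker genes. Levels are RPKM, reads scaled by gene model length and by the TMM-scaled library, so that they can be compared between gene models. A gene model was called where the edgeR quasi-likelihood test gave a Benjamini-Hochberg adjusted p under 0.05 and the groups were 2-fold or more apart, in a fit to all 29 libraries and 11990 gene models with enough reads.

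One library stood apart. YFB_L replicates 2 and 3 correlated at 0.991 in log2 CPM across gene models, which are not independent replicates, while replicate 1 reached 0.885 and 0.867 with them. Replicate 1 was nearer to the mature cap than the others were. It reached 0.732 to 0.758 with the 3 FB_CL libraries, where replicates 2 and 3 reached 0.674 to 0.710. The FB_CL libraries correlated at 0.972 to 0.985 with each other. Results are given with and without YFB_L replicate 1. In the young cap (YFB_C), replicate 3 stood apart in a like way, with 0.796 to 0.809 against FB_CL where its replicates 1 and 2 reached 0.755 to 0.769.

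Of the gene models tested, 6417 were called (53.5%), and 6721 of 12090 without YFB_L replicate 1 (55.6%). In the mature cap with lamellae 2945 gene models were higher (24.6% of those tested) and 3472 lower (29% of those tested). The median size of a called rise was 2.26 on the log2 scale and that of a called fall -2.15. At 16-fold or more, 581 rose (4.85%) and 461 fell (3.84%), and at 64-fold or more 222 rose (1.85%) and 101 fell (0.842%). Ranges of the 3 against 3 libraries did not overlap for 2813 of the gene models that rose (95.5%) and 3100 of those that fell (89.3%). The calls rest on the same libraries and favour such a gap, so these counts add no separate support. No read was counted in young lamellae for 11 that rose (0.374%), or in the mature cap for 39 that fell (1.12%). The young lamellae libraries held 18716245 to 32199674 counted reads and those of the mature cap 14445914 to 26367400. These counts depend on that depth and are given without a share over all gene models tested. The gene models that rose had a median of 72.6 RPKM in the mature cap, where the median over all tested was 14.1, and those that fell had a median of 21.2 RPKM in young lamellae, where it was 16.5. Read depth was concentrated in the mature samples, where the 10 gene models with the most FB_CL reads took 18.1% to 18.2% of each library. The same 10 took 3.61% of YFB_L replicate 1, and 0.561% and 0.351% of replicates 2 and 3, but they were chosen by FB_CL reads. The 10 gene models with the most reads in each library itself took 18.2% to 18.4% in FB_CL. In YFB_L replicates 1 to 3 such a top 10 took 9.03%, 4.38% and 4.51%. The split between rises and falls depended on the scaling. TMM factors were 0.436 to 0.504 in FB_CL and 0.872 to 1.36 in YFB_L. With library size alone as the scaling, the median gene model moved from -0.12 to -1.47 on the log2 scale, with 1302 higher and 6907 lower.

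**Figure D1:**
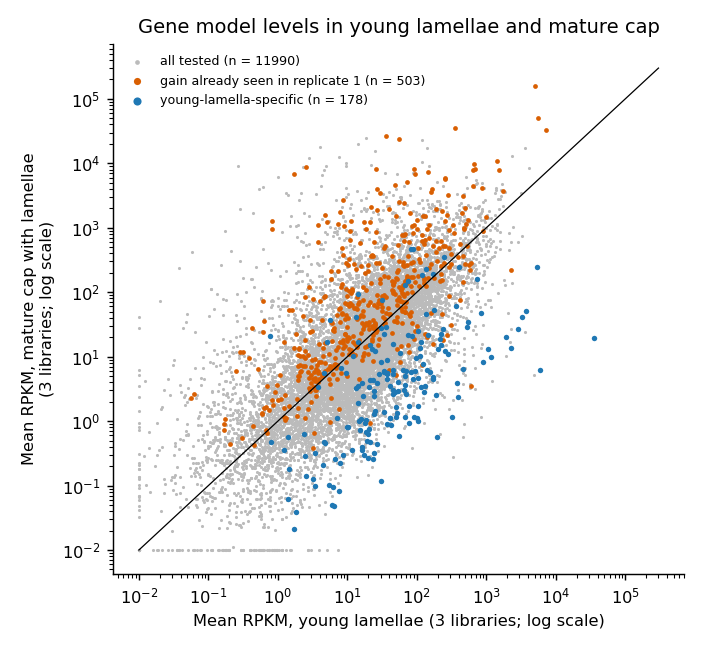
Mean RPKM in the 3 young lamellae libraries (x axis) against the 3 libraries of mature cap with lamellae (y axis), both on log scales, 1 point per gene model, with means under 0.01 drawn at 0.01 and the line of equal levels. The 178 young-lamella-specific gene models (blue) lie mostly below the line, and the 503 gains already seen in YFB_L replicate 1 (orange) mostly above it.

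The largest rises came from transcripts almost absent in all 3 young lamellae libraries. Gene model 448419 was at 0.365, 0.139 and 0.298 RPKM in YFB_L replicates 1 to 3 and at 7076, 9555 and 10878 RPKM in the FB_CL libraries. The groups lay far apart, with a log2 change of 15.03 ± 1.56 (SE; adjusted p = 2.23e-08, edgeR), and 15.29 without YFB_L replicate 1. Gene model 463577 was at 0.380, 0.973 and 0.254 RPKM in young lamellae and at 3495, 4081 and 4543 RPKM in the mature cap. It rose by 12.89 ± 0.87 on the log2 scale (SE; adjusted p = 3.51e-11, edgeR), and by 12.71 without YFB_L replicate 1. Only 27 reads of 448419 and 16 of 463577 were counted over the 3 young lamellae libraries, so the size of both rises is coarse. They differed in the young cap, where 448419 already stood at 327 ± 219 RPKM and 463577 at 0.463 ± 0.663 RPKM (SD, n = 3 each).

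The largest falls were of abundant young transcripts. Gene model 391326, of 342 bases, stood at 41720, 31482 and 33876 RPKM in young lamellae, which was 1.24%, 1.42% and 1.58% of all reads. In the mature cap it was at 18.5, 26.6 and 13.6 RPKM, with no overlap of the groups, a log2 change of -10.83 ± 1.49 (SE; adjusted p = 1.26e-06, edgeR), and -10.70 without YFB_L replicate 1. The mature level was also below the 735 ± 64.8 RPKM of the young cap (SD, n = 3), by a log2 change of -5.22 ± 1.18 (SE; adjusted p = 0.000595, edgeR). Gene model 382271, of 300 bases, was at 8964, 4147 and 1635 RPKM in young lamellae and at 6.41, 5.79 and 3.19 RPKM in the mature cap. The groups did not overlap, with a change of -9.90 ± 1.04 (SE; adjusted p = 2.52e-08, edgeR), and -9.14 without YFB_L replicate 1. This transcript was not one of the lamellae alone, with 5496 ± 667 RPKM in the young cap and 3479 ± 888 RPKM in the young stipe (SD, n = 3 each).

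The loss was broader than lamella-specific transcripts. A gene model was called young-lamella-specific where YFB_L exceeded each of the other 7 groups, FB_CL left aside, at least 4-fold with an edgeR adjusted p under 0.05. This held for 302 gene models (2.52% of those tested), of which 234 were lower in FB_CL, 54 not called and 14 higher. Those 234 were 77.5% of the specific gene models, where 29% of all gene models tested were lower. YFB_L values enter both the choice and the comparison, so the share is a description and not independent evidence of a fall. Specific gene models made up 6.74% of the 3472 that fell. Of the gene models that fell, 1413 (40.7%) had their highest group mean in young lamellae, 598 (17.2%) in the young stipe, 582 (16.8%) in vegetative mycelium and 334 (9.62%) in the young cap. Over all tested gene models the highest mean lay in young lamellae in 15.2%, the young stipe in 13.5%, mycelium in 16.4% and the young cap in 12%. The share in mycelium was thus near that of all gene models, and the share in the young cap below it. The call favours a high mean in young lamellae. It also left none with its highest mean in FB_CL, where 16% of all tested had theirs. These shares are therefore a description. Where young lamellae exceeded none of the 7 groups 4-fold, 17.5% of 8434 gene models were lower in FB_CL, against 77.5% where they exceeded all 7.

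Much of that specific set depended on replicate 1. Without it, 217 gene models were specific, and 179 of them were lower in FB_CL, 26 not called and 12 higher, beside 27.4% lower over all 12090 tested in that fit. Both choices held 178 gene models, 58.9% of the first list and 84.4% of the part of the second that was tested with all libraries. Of these 178, 148 were lower in FB_CL, 23 not called and 7 higher, and 87 fell at least 16-fold. Their median level was 30.8, 41.6 and 41.3 RPKM in the YFB_L libraries and 3.53, 4.37 and 3.35 RPKM in the FB_CL libraries. The change was unequal among them, with a median of -3.96 on the log2 scale, quartiles of -5.26 and -2.32 and a range from -10.83 to 4.71. Over all gene models tested the median was -0.12.

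For the 211 gene models chosen as specific without replicate 1 and tested with all libraries, replicate 1 is a library the choice did not use. Replicate 1 was below both other lamellae libraries for 142 of them (67.3%) and within 2-fold of their mean for 86 (40.8%). It was below both for 44.3% of all gene models tested and for 69.3% of the 3299 that were lower in FB_CL than in replicates 2 and 3, so the share was near that of losses in general. These gene models were chosen for high values in replicates 2 and 3. Of the 173 that were lower in FB_CL, replicate 1 was past the midpoint towards the mature cap for 31 (17.9%). That share was smaller than over all 3299 losses, where it was past the midpoint for 968 (29.3%).

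Levels were also set out as shares of reads, which are scaled by library size alone and so lie lower in FB_CL for most gene models. The 178 gene models took 4.75%, 5.82% and 6.31% of the reads of YFB_L replicates 1 to 3, and 0.199%, 0.272% and 0.255% of the FB_CL libraries. In young cap libraries they took 0.168% to 0.269%, so the mature cap overlapped the young cap. The mean level of 109 of the 178 (61.2%) in FB_CL was at or under the highest mean of the other 7 groups. Over all gene models tested, FB_CL stood above all 7 in only 17.9%. The 178 thus stood above the other groups in FB_CL more often than gene models in general. The choice required those 7 groups to lie at least 4-fold under young lamellae. That favours such a standing of FB_CL, so these shares are a description. None of the 178 had 0 reads over the 3 FB_CL libraries, and 48 had a mean under 1 RPKM there, against 2 in young lamellae. Compared with the young cap, 32 of the 178 (18%) were lower in FB_CL, where 25% of all tested were. Higher were 53 (29.8%), where 23.1% of all tested were. The young cap was among the groups required to be low, which favours higher calls. This comparison shares the FB_CL libraries with that against young lamellae.

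**Figure D2:**
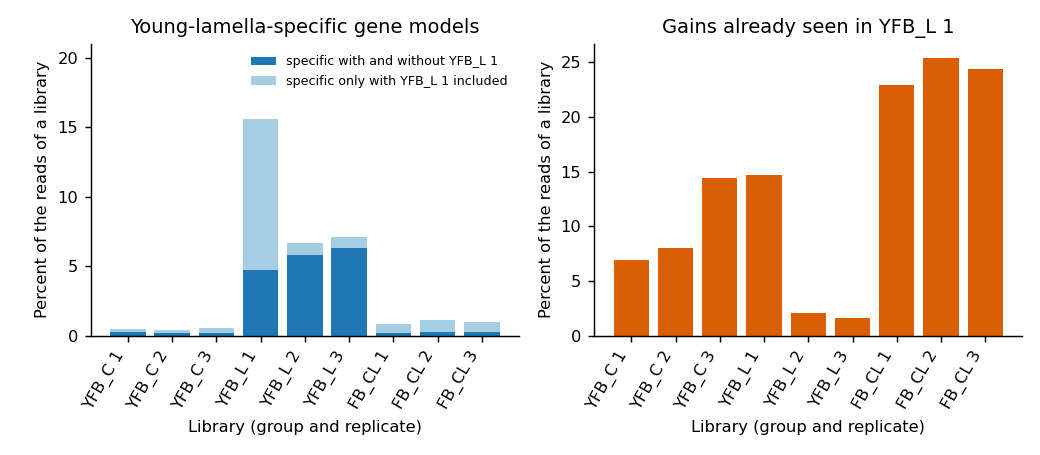
Percent of the reads of each library (y axis) taken by young-lamella-specific gene models (left) and by gains already seen in YFB_L replicate 1 (right), 1 bar per library of young cap, young lamellae and mature cap with lamellae. The dark part of the left bars, the 178 gene models specific with and without replicate 1, stands at 4.75% to 6.31% in young lamellae and at 0.199% to 0.272% in the mature cap, and the right bar of YFB_L replicate 1 stands at 14.7%.

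Among the 178, the most abundant that fell was 391326, one of the largest falls. The next was 501541, of 288 bases, at 6621, 5493 and 5724 RPKM in young lamellae and at 3.82, 9.95 and 4.98 RPKM in the mature cap. The groups did not overlap, and its log2 change was -9.85 ± 1.35 (SE; adjusted p = 1.13e-06, edgeR), and -9.76 without YFB_L replicate 1. In the young cap it was at 792 ± 371 RPKM (SD, n = 3). Some lamella-specific transcripts were not called lower. Gene model 444563 was at 438, 384 and 377 RPKM in young lamellae and at 181, 266 and 299 RPKM in the mature cap. Its log2 change was -0.68 ± 0.57 (SE; adjusted p = 0.299, edgeR), and its mature level was above the young cap's 8.11 ± 2.56 RPKM (SD, n = 3) by 4.94 ± 0.67 on the log2 scale (SE; adjusted p = 1.22e-06, edgeR). Low young cap levels were part of the choice of specific gene models and favour that difference. With library size alone as the scaling, the change of 444563 against young lamellae was -2.05 and was called lower. Gene model 21260 was at 237, 270 and 230 RPKM in young lamellae and at 255, 346 and 455 RPKM in the mature cap, with overlapping ranges. Its log2 change of 0.52 ± 0.38 (SE) missed the threshold (edgeR adjusted p = 0.244). With library size alone it was -0.87 and missed the threshold too.

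The other 124 gene models of the first specific list were those that replicate 1 brought in. Replicate 1 was at least 4-fold above both other lamellae libraries for 107 of them. Their median level was 249 RPKM in replicate 1, 6.37 and 4.79 RPKM in replicates 2 and 3, and 8.85, 10.5 and 7.26 RPKM in the FB_CL libraries. The median was 11.4 RPKM in YFB_C replicate 3 and 2.91 and 2.49 RPKM in the other young cap libraries. With all libraries 86 of the 124 were lower in FB_CL and 7 higher. Without replicate 1, 31 were lower and 39 higher. The balance of calls over these gene models turned on 1 library.

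**Figure D3:**
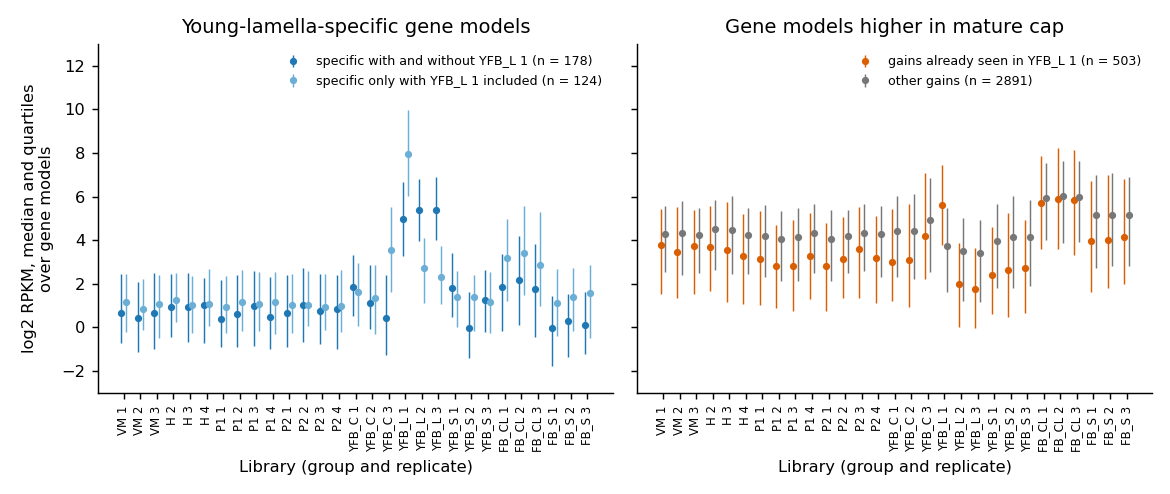
Median log2 RPKM with quartiles over gene models (y axis) in each of the 29 libraries (x axis), for young-lamella-specific gene models (left) and gene models higher in the mature cap in the fit without YFB_L replicate 1 (right). The 124 gene models specific only with replicate 1 peak in that library at a median of 249 RPKM, and the 503 gains already seen there stand at 49.3 RPKM against 3.89 and 3.31 in YFB_L replicates 2 and 3.

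Gains were chosen in a fit that left out YFB_L replicate 1, so that this library could be read as one the choice did not use. They were chosen for low values in replicates 2 and 3, against which replicate 1 is then set. That favours replicate 1 standing above them, so the shares below are a description. Against replicates 2 and 3, 3407 gene models were higher in FB_CL (28.2% of those tested) and 3314 lower (27.4%). Of the gains, 3394 were also tested with all libraries. A gain was counted as already seen where replicate 1 was at least 4-fold above both other lamellae libraries in log2 CPM. This held for 503 gains, 14.8% of 3394, where 7.22% of all gene models tested passed the same threshold. Replicate 1 was at least 2-fold above both for 1175 gains (34.6%), against 18.8% of all tested, and at least 4-fold below both for 6. It was above both by any amount for 2401 gains (70.7%), against 47.1% of all tested. The same measure gave 21.6% of gains for replicate 2, against 21.9% of all tested, and 24.5% for replicate 3, against 31%, each left out in turn. Replicate 1 was then among the libraries to exceed, so these are no like comparison. With all libraries, 222 of the 503 were called higher in FB_CL (44.1%), 259 not called and 22 lower, while 2555 of the other 2891 gains were called higher (88.4%). One library gives no test of these shares.

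Losses were seen in the same library. Of 3299 losses, replicate 1 was at least 4-fold below both other libraries for 137 (4.15%), where 1.47% of all gene models were. It was at least 2-fold below for 1080 (32.7%), where 14.3% of all were. From the other side, 866 gene models were 4-fold above in replicate 1, and 503 of these were higher in FB_CL, 84 lower and 279 not called. Of the 176 gene models 4-fold below in replicate 1, 137 were lower in FB_CL and 6 higher.

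The position of replicate 1 between the groups was measured per gene model on log2 CPM, as 0 at the mean of replicates 2 and 3 and 1 at the mean of FB_CL. Its median was 0.265 over the gains, with quartiles of -0.00249 and 0.633, and 0.287 over the losses, with quartiles of -0.0363 and 0.552. Replicates 2 and 3 chose these gene models and also set the 0 point, which favours positions above 0. The same measure with replicate 2 left out was -0.0347 over 2738 gains and -0.0479 over 3413 losses. With replicate 3 left out it was -0.0705 over 2730 gains and -0.048 over 3388 losses. With replicate 2 or 3 left out, replicate 1 stayed in the reference and in the choice. That draws the 0 point towards the mature cap wherever replicate 1 lies nearer to it. The values for replicates 2 and 3, here and below, are therefore no like comparison for replicate 1. Replicate 1 was past the midpoint for 1056 of its 3394 gains (31.1%), replicate 2 for 51 of 2738 and replicate 3 for 74 of 2730. No gain was 4-fold above both others in replicate 2 or in replicate 3. Over all 11990 gene models tested this held for only 1 in replicate 2 and 0 in replicate 3, so it is not particular to gains.

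**Figure D4:**
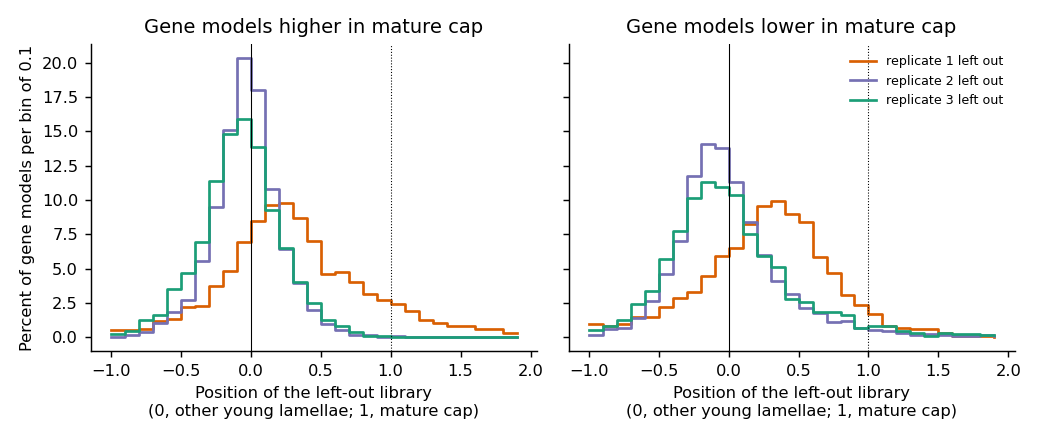
Percent of gene models per bin (y axis) by the position of a left-out young lamellae library between the other young lamellae libraries (0) and the mature cap (1) on the x axis, for gene models higher (left) and lower (right) in the mature cap in the fit without that library; positions under -1 or over 2 are not drawn. The curve for replicate 1 is shifted towards 1, with a median of 0.265 for gains and 0.287 for losses, while those for replicates 2 and 3 have medians of -0.0347 to -0.0705 for gains and near -0.048 for losses. In the curves for replicates 2 and 3, replicate 1 is among the other libraries, so they are no like comparison for it.

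Replicate 1 did not hold a fixed fraction of every gain. Among gains over 64-fold, 101 of 320 were already seen (31.6%), yet the median position over these 320 was 0.16. Among gains of 2-fold to 4-fold, 86 of 1243 were seen (6.92%) and the median position was 0.316. Part of that difference in counts follows from the threshold, since a gain under 4-fold passes it in general only where replicate 1 exceeds the mature cap. Over the 503 gains already seen the median position was 1.02, and 261 were at or past the FB_CL mean, which the choice of these gene models favours. As a share of reads, the 503 took 14.7% of replicate 1, 2.05% and 1.61% of replicates 2 and 3, and 22.9% to 25.4% of the FB_CL libraries.

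The same gene models were set in the young cap. Its libraries entered the filter and the shared estimate of spread in the fit that chose the gains, but not the comparison itself, and without YFB_C replicate 3 there were 3447 gains and 517 already seen. Of the 503, 109 (21.7%) were at least 4-fold higher in YFB_C replicate 3 than in both other young cap libraries. This held for 144 of the other 2891 gains (4.98%) and for 3.5% of all tested. Their share of the reads was 14.4% in YFB_C replicate 3 and 6.87% and 7.99% in YFB_C replicates 1 and 2. No test is given, since each of these libraries is 1 sample.

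The 2 gains already seen with the highest mature level are given in full. Gene model 448287 was at 14872 RPKM in YFB_L replicate 1, at 38.5 and 16 RPKM in replicates 2 and 3, and at 129009, 188974 and 157769 RPKM in FB_CL. It took 0.839% of the reads of replicate 1 and 4.2% to 5.34% of the mature libraries. Its log2 change was 4.99 ± 1.90 with all libraries (SE; adjusted p = 0.0252, edgeR) and 12.50 ± 2.41 without replicate 1 (SE; adjusted p = 9.09e-05, edgeR). The call was lost without YFB_L replicate 2 (4.41, edgeR adjusted p = 0.0668) and without replicate 3 (4.41, edgeR adjusted p = 0.0597). In the young cap it was at 17.8, 8.80 and 4692 RPKM, again with a single library far above the rest.

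Gene model 426605 was at 16626 RPKM in YFB_L replicate 1, at 154 and 21.2 RPKM in replicates 2 and 3, and at 41263, 44782 and 64388 RPKM in FB_CL. On the log2 scale replicate 1 lay nearer to the mature than to the other young lamellae libraries, at a position of 0.839. The log2 change was 3.16 ± 1.36 with all libraries (SE; adjusted p = 0.0467, edgeR) and 9.16 ± 1.49 without replicate 1 (SE; adjusted p = 1.23e-05, edgeR). Leaving out any other of the 6 libraries lost the call, with changes of 2.57 to 3.28 (edgeR adjusted p = 0.0589 to 0.123). It was already abundant in the young cap, at 13747, 31696 and 55192 RPKM, and in the mature stipe, at 58857 ± 15323 RPKM (SD, n = 3).

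Of the 3394 gains, 2891 were not 4-fold above both other lamellae libraries in replicate 1. Their median level was 13.4 RPKM in replicate 1, 11.1 and 10.6 RPKM in replicates 2 and 3, and 60.4 to 64.7 RPKM in the FB_CL libraries. The most abundant among those within 2-fold in replicate 1 was 459741, at 3.85, 4.28 and 4.06 RPKM in young lamellae and at 19617, 17519 and 17063 RPKM in the mature cap. It rose by 12.12 ± 1.09 on the log2 scale (SE; adjusted p = 2.27e-09, edgeR), and by 12.08 without YFB_L replicate 1. The next was 486033, at 199, 103 and 117 RPKM in young lamellae and at 22893, 13162 and 16509 RPKM in the mature cap. It rose by 6.97 ± 0.71 (SE; adjusted p = 1.74e-08, edgeR), and by 7.31 without YFB_L replicate 1.

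**Figure D5:**
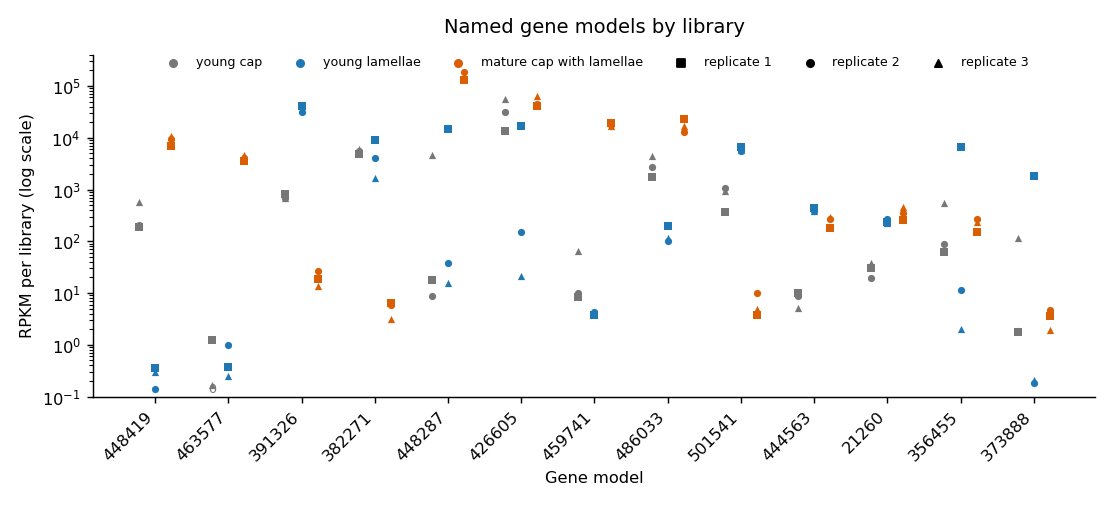
RPKM of the 13 named gene models (x axis) in each library of young cap, young lamellae and mature cap with lamellae, on a log scale with 1 point per library. A printed 0 at the bottom marks a library with no read. For 448287, 426605, 356455 and 373888 the square of YFB_L replicate 1 stands far above the other 2 young lamellae libraries, and for the rest the young lamellae libraries lie closer together.

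Of the gene models called with all libraries, 3027 that fell and 2777 that rose were called the same way without replicate 1. Leaving it out lost 423 falls and 168 rises and added 272 falls and 595 rises. A further 22 turned from lower to higher. In all 22 the level of replicate 1 was above the FB_CL mean, which such a turn in effect requires. In 21 it was the highest of the 29 libraries, which the turn favours. Replicate 1 was the highest for 8.55% of all tested. For the 866 gene models 4-fold above both others in replicate 1 that share was 40.9%. The median of the 22 was 269 RPKM in replicate 1, 2.49 RPKM over replicates 2 and 3 and 14.7 RPKM in FB_CL. The 2 with the highest level in replicate 1 are named here, chosen after their values were seen. Gene model 356455 was at 6680, 11.5 and 2.00 RPKM in young lamellae and at 152, 275 and 232 RPKM in the mature cap, a log2 change of -3.34 ± 1.38 with all libraries (SE; adjusted p = 0.0381, edgeR) and 5.03 ± 0.90 without replicate 1 (SE; adjusted p = 3.70e-05, edgeR). Gene model 373888 was at 1819, 0.183 and 0.214 RPKM in young lamellae and at 3.61, 4.76 and 1.97 RPKM in the mature cap. Its change was -7.45 ± 2.03 with all libraries (SE; adjusted p = 0.00266, edgeR) and 4.09 ± 1.28 without replicate 1 (SE; adjusted p = 0.00753, edgeR). In young cap replicate 3 it stood at 114 RPKM, against 1.77 and 1.82 RPKM in the other 2.

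The mature level was also set against young lamellae and young cap together. Being called against young lamellae favours a mature mean beyond both, so these shares are a description. Over all gene models tested the FB_CL mean was below both in 38.7%, above both in 33.8% and between them in 27.5%. Of the 3472 gene models lower in FB_CL than in young lamellae, 2827 (81.4%) had an FB_CL mean under those of both young lamellae and young cap, and 645 lay between them. Of the 2945 that were higher, 2358 (80.1%) had an FB_CL mean above both and 587 lay between. Set against the young cap with its own call, 1783 of the gene models that fell were lower there too (25% of all tested were) and 166 higher. Of those that rose, 1663 were higher than in the young cap as well (23.1% of all tested were) and 210 lower. Both comparisons share the FB_CL libraries, so these counts are not independent of each other.

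The stipe gives a comparison with no library in common. Of the 2945 gene models that rose in the cap with lamellae, 1444 (49%) were also higher in mature than in young stipe, where 23.1% of all tested were, and 259 (8.79%) were lower. Of the 3472 that fell, 1567 (45.1%) were lower in the mature stipe as well, where 23.5% of all tested were, and 226 (6.51%) were higher. The gains already seen in YFB_L replicate 1 were near the other gains here, with 216 of 503 (42.9%) and 1369 of 2891 (47.4%) higher in the mature stipe. The change itself differed between cap with lamellae and stipe for 4748 gene models (39.6% of those tested), tested as a difference of differences with an edgeR adjusted p under 0.05 and at least 2-fold. That set held 1453 of the gene models that rose (49.3%) and 1684 of those that fell (48.5%). The change in cap with lamellae is itself part of the difference tested, which favours both shares.

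Length was close to that of all gene models for both directions. The median was 1289 bases for those that rose, 1354 for those that fell and 1317 for all tested, and 1471 for the 178 young-lamella-specific gene models. Reads shared with near-identical models touched few of them. Under 90% of the reads were placed on 1 model only for 52 of the 6417 called gene models and 1 of the 178. For the named gene models this share was 100% after rounding.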

How the data were processed

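Each of the 29 libraries has a deposited table of total and unique read counts for 14242 gene models, whose column names, per the file headers, are those of a CLC RNA-Seq table. Aligner settings and assembly are not stated in the sources used here. The kit named in the labels does not mark strand. The authors also deposited a log2 RPKM table of 12003 gene models. The submitters' processing notes list R 3.0.2 and limma 3.18.13 with edgeR 3.4.2. Its scaling of libraries was within 0.0027 log2 of the TMM scaling used here.

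Total counts were analysed with edgeR 4.0.16 (R 4.3.3). The filter filterByExpr kept 11990 gene models and set aside 2252, and the fit had TMM scaling and 1 coefficient for each of 9 groups. The SE is the change divided by the root of its F statistic. Log2 CPM used a prior count of 2. The code was tested on simulated data. In the 2 groups, chi-square over its degrees of freedom between replicates was 31.3 to 979, so none was counted as a copy.

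Named gene models were the 2 largest rises and the 2 largest falls with no overlap of groups and at least 10 RPKM in the higher group. To these came the 2 gains with the highest mature level that were already seen in YFB_L replicate 1 and the 2 where replicate 1 was within 2-fold of the others. The last were the 2 most abundant specific gene models lost, and the 2 not lost, with and without that library. The 2 that changed direction were chosen after their values were seen. The comparison, lists and thresholds were chosen with earlier results of these data known. Alternatives were DESeq2 1.42.0, limma 3.58.1 on the log2 RPKM table, other scalings, filters and thresholds, a replicate block, only the groups compared, 1 flow cell, and leaving out libraries.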

Additional observations from a re-analysis of the deposited data

Results flagged for a closer look

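For 5 of the named gene models the change from young to mature tissue differed between cap with lamellae and stipe, by a test of the difference itself (edgeR quasi-likelihood, over all gene models). The difference is given as the log2 change of FB_CL over YFB_L minus that of FB_S over YFB_S. It was 9.42 for 448419 (adjusted p = 3.71e-05, edgeR), 6.74 for 459741 (adjusted p = 2.77e-05, edgeR) and 2.41 for 486033 (adjusted p = 0.0166, edgeR), all of which rose in both organs and more in the cap with lamellae. It was 2.64 for 444563 (adjusted p = 0.0203, edgeR), which fell by 3.33 on the log2 scale in the stipe. Without YFB_L replicate 1 these 4 were at 9.68, 6.70, 2.75 and 2.72 and still called. It was -8.15 for 373888 (adjusted p = 0.0318, edgeR), and 3.39 without YFB_L replicate 1, no longer called (adjusted p = 0.113, edgeR). Without that library the difference was called for 3 further named gene models, at 5.85 for 448287, 3.72 for 426605 and 4.18 for 356455 (edgeR adjusted p = 0.0263, 0.0314 and 0.00238).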

How the results depend on the processing

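Counts of calls were within 1.5 times of the reported ones under DESeq2, RLE scaling, other filters, only the groups compared and the first flow cell. Exceptions follow. Library size alone gave 1302 higher, 6907 lower, 1430 gains, 225 already seen and a median position of 0.13. Limma on log2(RPKM + 1) gave 164 specific gene models, 131 of them lower. At 4-fold there were 3641 calls (1731 higher, 1910 lower), 2164 gains and 2853 differences between cap and stipe. Specific at 2-fold held for 587, with 457 lower, and already seen held for 1175 at 2-fold and 247 at 8-fold.

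Leaving out 1 library gave 6132 to 6721 calls (2738 to 3407 higher, 3289 to 3537 lower), 217 to 344 specific gene models with 179 to 272 lower, 3315 to 3447 gains, 486 to 517 seen, positions of 0.257 to 0.266 and 4273 to 5033 differences. Gene model 356455 ranged from -3.93 to 5.03 and 373888 from -8.04 to 4.09, the highest without YFB_L replicate 1. Leaving out YFB_C replicate 3 too, chosen after seeing the data, also gave 5.03 and 4.09. For 356455 limma gave 1.76 and, with a pseudocount of 0.1, 1.96, neither called, and 373888 was not called under limma either. The cause was not tested.

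Replicate numbers share only a number: same-numbered deviations correlated at -0.034, -0.059 and 0.029 across gene models, and not every library correlated best with its own number. With a replicate block 6383 were called (2946 higher, 3437 lower), and 426605 (3.32) and 356455 (-2.93) missed the threshold. With only the groups compared, 448287, 426605, 356455 and 373888 missed it, as did 426605 with library size alone and with the first flow cell. Depth limits the size of the changes of gene models with few reads in a group.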
